A study of Mus musculus with 6 samples.

Results

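Translation initiation and elongation factors were examined in MASMCs, cultured smooth muscle cells of the mouse abdominal aorta, with or without a deletion of *Pdk4*. The members were chosen by name and biotype, as every protein-coding gene of the count table whose name begins with Eif1 to Eif6 or with Eef1 or Eef2, except the eIF2 kinases (names beginning Eif2ak). The rule found 57 of the 41721 genes, and 54 of the 57 passed the filter on low counts. The study compared 3 libraries of Pdk4fl/fl cells, in which loxP sites flank exons 4 to 6 of *Pdk4*, with 3 libraries of Pdk4SMKO cells, which also carry the Myh11-creERT2 transgene (a tamoxifen-inducible Cre recombinase driven by the smooth muscle myosin heavy chain promoter). By the study's methods mice of both genotypes received tamoxifen for 5 days, and cells were isolated at 10 weeks of age and used at passages 4 to 8. All 6 cultures received Ang II (angiotensin II, 1 μM for 48 h), so no library shows either genotype without Ang II. The study calls these cultures biological replicates. The sources do not say whether those of a genotype came from separate mice, so p-values measure the spread between these cultures, which may in part be technical.

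Translation begins when initiation factors bring the initiator tRNA, the small ribosomal subunit and the capped end of an mRNA together, and scan for a start codon. Elongation factors then deliver aminoacyl-tRNAs to the ribosome and move it along the message. In smooth muscle, Ang II is known to raise protein synthesis, in part through the mTOR and eIF4E pathway that controls cap binding, and many translation factor mRNAs carry a 5′ terminal oligopyrimidine (TOP) tract through which mTOR controls their own translation.

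Each library held 16526044 to 22481670 reads counted on genes. A count of 3 corresponded to 0.131 to 0.227 CPM (the usual depth-scaled count, here with TMM factors applied to the library totals), a floor that covers counting error alone. *Pdk4*, the targeted gene, was measured at 38.0, 35.1 and 31.8 CPM in Pdk4fl/fl and 4.82, 9.05 and 6.91 CPM in Pdk4SMKO libraries (log2 fold change −2.34 ± 0.22 SE, adjusted p = 4.49e-06, edgeR quasi-likelihood test), over all its exons. *Xist*, the RNA of the inactive X chromosome in female cells, had 3, 4 and 5 counts in Pdk4fl/fl and 610, 347 and 321 in Pdk4SMKO libraries, although the transgene is Y-linked and the study used male mice. All 3 Pdk4SMKO libraries carried it, so sex and genotype cannot be told apart in any result below, and *Eif1ax* is the only member on chromosome X. Smooth muscle markers summed to 785 to 810 CPM in Pdk4fl/fl and 722 to 952 CPM in Pdk4SMKO libraries, with 3 of 8 lower and 4 higher. Mesothelial markers summed to 74.2 to 99.9 and 722 to 1323 CPM (7 of 7 tested higher), and fibroblast markers to 141 to 173 and 1317 to 2770 CPM (3 of 6 higher, 1 lower). Macrophage markers summed to 21.4 to 38.0 and 11.6 to 37.2 CPM, with *C1qa*, *C1qb*, *C1qc*, *Adgre1* and *Tyrobp* at 0 in every Pdk4fl/fl library (6 of 7 higher, *Cd68* lower). Endothelial markers summed to 13.7 to 23.1 and 2.88 to 5.39 CPM (2 of 2 tested lower), with *Tie1* at 0 in every Pdk4fl/fl library. Proliferation markers summed to 424 to 497 and 258 to 434 CPM, with 2 of 8 lower and 1 higher. The part of these differences between the cultures in the results below was not tested, and in bulk RNA fewer cells of a type and less RNA per cell cannot be told apart.

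Most of the translation factor genes had fewer reads in Pdk4SMKO than in Pdk4fl/fl cells. Of the 54 tested, 31 fell and 2 rose by at least 2-fold with an adjusted p under 0.05 (57.4% and 3.70%). Over all 14085 genes tested 26.5% fell and 32.8% rose, 59.3% in either direction. Of the other 21 members, 10 were lower and 5 higher at the adjusted p alone, and 6 did not pass it. The groups did not overlap for 41 members that were lower, against 38.3% of all genes, and for 7 that were higher, against 43.5%. The members' median log2 fold change was −1.25, against 0.12 over all genes. Translation factors are well-counted genes, and among the 4257 genes with a mean of at least 50 CPM 40.0% fell and 17.4% rose, with a median of −0.64. At that level 28 of 42 members fell.

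**Figure D1:**
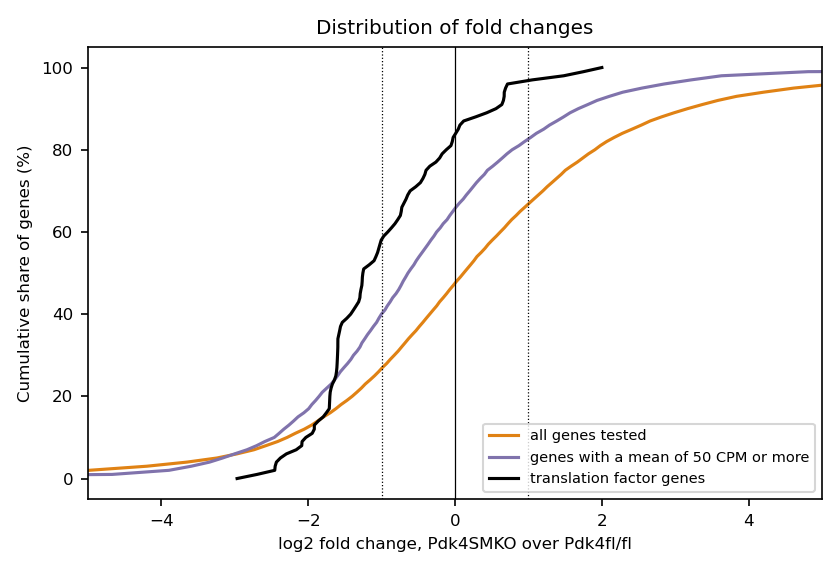
Cumulative share of genes (y axis, percent) by log2 fold change of Pdk4SMKO over Pdk4fl/fl (x axis) for the 54 translation factor genes tested, all 14085 genes tested and the 4257 genes with a mean of at least 50 CPM, with dotted lines at a 2-fold change. The curve of the translation factors crosses 50% at −1.25, left of the well-counted genes at −0.64 and of all genes at 0.12.

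The number of calls rested on the scaling between libraries. TMM factors were 0.784 to 0.838 in Pdk4fl/fl and 1.21 to 1.26 in Pdk4SMKO libraries. With library size alone, the median of all genes moved from 0.12 to 0.72 and the calls over all genes from 3733 lower and 4616 higher to 2390 lower and 6184 higher. The members then gave 16 lower and 6 higher. Relative to the median of all genes, the members' median was −1.37 under both scalings. Scaling moves all genes by about the same amount, so this difference was fixed beforehand and is not a check of the result. In plain units, library-size scaling is the share of each library's counted reads, and it carries the same limit. By that measure the members together took 2.80%, 2.82% and 2.62% of the reads in Pdk4fl/fl and 1.47%, 1.49% and 1.52% in Pdk4SMKO libraries, so that the groups stood well apart. Without *Eef2*, the most abundant member, the shares were 1.90%, 1.88% and 1.95% against 1.11%, 1.07% and 1.15%.

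**Figure D2:**
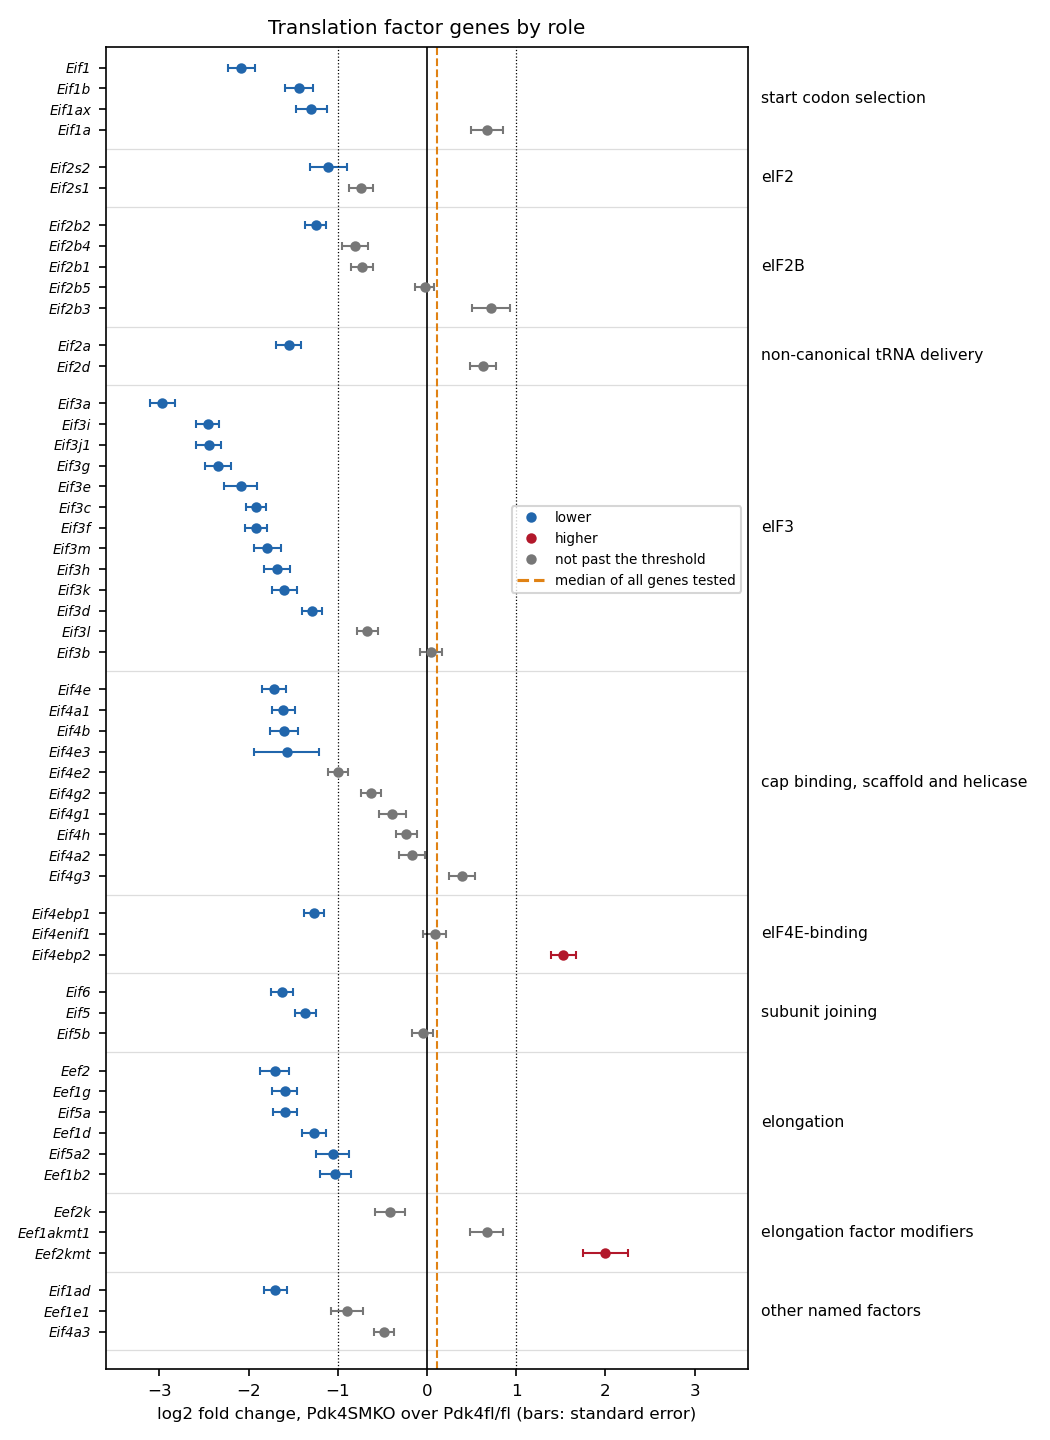
Log2 fold change of Pdk4SMKO over Pdk4fl/fl (x axis, bars are standard errors, n = 3 libraries each) for the 54 tested translation factor genes, grouped by role, with dotted lines at a 2-fold change and a dashed line at the median of all genes tested. *Eif3a* lies furthest to the left, followed by *Eif3i*, *Eif3j1* and *Eif3g*, and *Eif4ebp2* and *Eef2kmt* lie right of the 2-fold line.

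eIF3, the large complex that binds the small ribosomal subunit and bridges it to the mRNA, had the lowest median of the roles with 3 or more tested members. Of its 13 subunit genes 11 fell and 2 were not called, with a median log2 fold change of −1.92 and a range from −2.97 (*Eif3a*) to 0.04 (*Eif3b*). *Eif3a*, its largest subunit and a core scaffold (chromosome 19 from 62817041 to 62846603 in the file's coordinates), was measured at 3703, 3528 and 3129 CPM in Pdk4fl/fl and at 437, 411 and 474 CPM in Pdk4SMKO libraries. It fell by 2.97 on the log2 scale (SE 0.14, adjusted p = 4.71e-08, edgeR), to 12.8% of the Pdk4fl/fl level, the largest fall of any member. *Eif3b*, the other large scaffold subunit, was measured at 243, 262 and 253 CPM and at 293, 256 and 232 CPM, so the groups overlapped (log2 fold change 0.04 ± 0.12 SE, adjusted p = 0.76).

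The subunits between these extremes differed in size of change as well. *Eif3i* and *Eif3g*, which join *Eif3b* in the module at the mRNA entry side, fell by 2.46 (SE 0.13) and 2.34 (SE 0.14) on the log2 scale. *Eif3i* was at 306, 320 and 382 CPM against 62.6, 58.2 and 62.7 CPM. *Eif3g* was at 300.0, 346 and 372 CPM against 76.1, 65.0 and 59.6 CPM. Members that share a module with *Eif3b* in the protein complex therefore did not share its level of change. *Eif3j1*, a loosely attached subunit, was at 124, 145 and 168 CPM against 26.1, 26.2 and 27.8 CPM and fell by 2.45 (SE 0.14), and its span overlaps that of the counted gene *Spg11*, whose reads cannot be told apart without strand. *Eif3e*, *Eif3c*, *Eif3f*, *Eif3m*, *Eif3h*, *Eif3k* and *Eif3d* fell by 2.09 to 1.29 on the log2 scale, and none of their groups overlapped. *Eif3l* did not reach a 2-fold change, at 372, 381 and 406 CPM against 217, 248 and 264 CPM (log2 fold change −0.67 ± 0.12 SE, adjusted p = 4.77e-04).

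**Figure D3:**
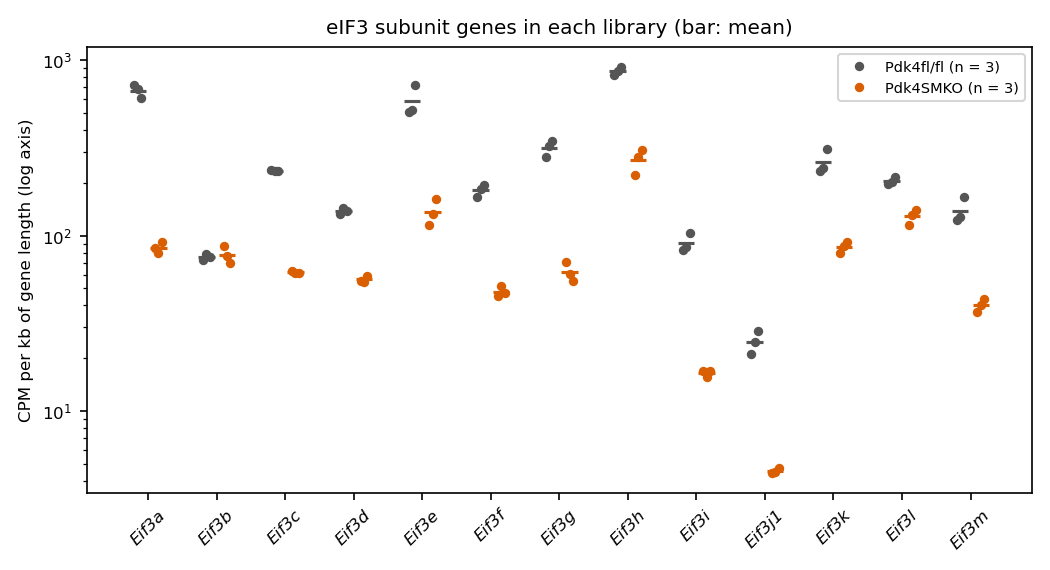
Level of the 13 eIF3 subunit genes in each library (points, CPM per kb of gene length, log axis), with a bar at the mean of each genotype (n = 3). The Pdk4SMKO points lie below the Pdk4fl/fl points for every subunit except *Eif3b*, whose points overlap.

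The proportions among the subunit mRNAs within a library need no scaling between libraries. Per length, 9.84, 8.70 and 7.99 *Eif3a* reads were counted for each *Eif3b* read in the Pdk4fl/fl libraries, and 0.966, 1.04 and 1.32 in the Pdk4SMKO libraries. *Eif3b* was chosen as the reference after its values were seen, and since it had the highest log2 fold change of the 13, the direction of every ratio to it follows from that choice. The ratios of the other 12 subunits were lower in Pdk4SMKO libraries by 0.71 (*Eif3l*) to 3.00 (*Eif3a*) on the log2 scale. The eIF3 genes together took 0.746%, 0.729% and 0.726% of the reads in Pdk4fl/fl and 0.274%, 0.274% and 0.296% in Pdk4SMKO libraries.

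Among the 4 factors that read the start codon, 3 fell and 1 was not called. *Eif1*, which guards the fidelity of start codon choice, fell by 2.08 on the log2 scale (SE 0.16, adjusted p = 8.83e-07, edgeR), from 1150, 1158 and 1561 CPM to 285, 299 and 329 CPM. Its relative *Eif1b* fell by 1.44 (SE 0.16), from 38.6, 46.1 and 54.0 CPM to 16.9, 18.4 and 16.0 CPM. eIF1A, which works with eIF1 on the scanning ribosome, is encoded by *Eif1a* and *Eif1ax*, and these near-identical genes differed. *Eif1ax* was at 198, 198 and 298 CPM in Pdk4fl/fl and 89.2, 89.6 and 103 CPM in Pdk4SMKO libraries (log2 fold change −1.30 ± 0.17 SE, adjusted p = 5.70e-05). *Eif1a* was at 112, 122 and 165 CPM against 169, 215 and 251 CPM (0.67 ± 0.18 SE, adjusted p = 0.0066), short of a 2-fold change. Per length the *Eif1a*/*Eif1ax* ratio was 1.03, 1.13 and 1.01 in Pdk4fl/fl and 3.47, 4.38 and 4.44 in Pdk4SMKO libraries. How the counting shared reads between the 2 genes is not given in the sources used here, so their separate levels are uncertain.

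eIF2 carries the initiator tRNA, and eIF2B recharges it with GTP, the step that the eIF2 kinases block. *Eif2s2* (the beta subunit) fell by 1.11 on the log2 scale (SE 0.21, adjusted p = 6.87e-04), from 64.8, 65.1 and 112 CPM to 37.0, 34.7 and 40.6 CPM, and without the third Pdk4fl/fl library the change was −0.81. *Eif2s1* (the alpha subunit, the target of the kinases) was at 154, 168 and 192 CPM against 104, 89.5 and 113 CPM (−0.74 ± 0.14 SE, adjusted p = 5.45e-04), under the 2-fold limit. *Eif2s3x* has no named row, and the row described as eIF2 subunit 3, taken after its values were seen, fell by 1.49 (SE 0.13). That row, outside the rule, also lies on chromosome X. Of the 5 eIF2B subunits only *Eif2b2* fell (−1.25 ± 0.12 SE), at 86.9, 99.9 and 96.0 CPM against 37.1, 41.3 and 40.7 CPM. *Eif2b5*, the catalytic subunit, was nearly level at 76.3, 79.9 and 77.1 CPM against 78.6, 75.3 and 75.2 CPM (−0.02 ± 0.11 SE, adjusted p = 0.84). *Eif2b1* and *Eif2b4* gave −0.72 and −0.81, and *Eif2b3* gave 0.72, with no overlap between groups but under the 2-fold limit. The subunit mRNAs of this small complex thus ranged from −1.25 to 0.72 on the log2 scale. The span of *Eif2b4* overlaps that of *Snx17*, which has more counts than *Eif2b4* itself.

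*Eif2a* and *Eif2d*, which can bring a tRNA to the ribosome without eIF2, gave opposite signs. *Eif2a* fell by 1.55 (SE 0.14), from 143, 144 and 180 CPM to 48.1, 52.2 and 58.6 CPM, and its span overlaps that of the more highly counted *Serp1*. *Eif2d* was at 28.7, 24.6 and 33.0 CPM against 43.9, 41.7 and 47.6 CPM (0.63 ± 0.14 SE, adjusted p = 0.0022), short of 2-fold.

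eIF4F binds the cap through eIF4E, unwinds the leader with the helicase eIF4A and bridges to eIF3 through the scaffold eIF4G. Of its 10 tested members, counting eIF4B, eIF4H and paralogs, 4 fell and 6 were not called. *Eif4e*, the cap-binding protein, was at 189, 188 and 235 CPM in Pdk4fl/fl and 65.9, 57.2 and 63.7 CPM in Pdk4SMKO libraries, a fall of 1.71 on the log2 scale (SE 0.13, adjusted p = 1.17e-06, edgeR). *Eif4a1*, the main helicase, was at 1668, 1582 and 1893 CPM against 576, 546 and 561 CPM, a fall of 1.61 (SE 0.13). *Eif4b*, which stimulates that helicase, was at 2255, 2392 and 2019 CPM against 588, 774 and 829 CPM, a fall of 1.60 (SE 0.16). The 3 genes kept 30.5%, 32.8% and 32.9% of their Pdk4fl/fl level. The low-count *Eif4e3* also fell, from 1.73, 2.69 and 2.95 CPM to 0.833, 0.646 and 0.980 CPM (−1.57 ± 0.36 SE, adjusted p = 0.0025).

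The scaffold genes and the second helicase gene changed less. *Eif4g1* was at 1001, 1028 and 762 CPM against 794, 688 and 651 CPM, with overlapping groups (−0.39 ± 0.15 SE, adjusted p = 0.036). *Eif4g2*, a cap-independent relative, gave −0.63 ± 0.11, and *Eif4g3* gave 0.39 ± 0.15. *Eif4a2* was at 245, 241 and 328 CPM against 225, 232 and 268 CPM (−0.17 ± 0.15 SE, adjusted p = 0.32). *Eif4h* gave −0.23 ± 0.12 (adjusted p = 0.090). The signs of *Eif4g1*, *Eif4a2* and *Eif4h* turned positive under library-size scaling, which moves all values by about the same amount. *Eif4e2*, a repressive cap-binding relative, stood just outside the limit at −0.998 (155, 174 and 169 CPM against 82.6, 81.8 and 84.7 CPM), and *Eef1b2* just inside it at −1.03.

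The repressors of eIF4E went in opposite directions. The 4E-binding proteins hold eIF4E away from eIF4G until mTOR phosphorylates them. *Eif4ebp1* fell from 149, 145 and 152 CPM to 66.6, 60.0 and 59.4 CPM (−1.26 ± 0.11 SE, adjusted p = 2.92e-06, edgeR). *Eif4ebp2* rose from 19.8, 17.2 and 15.4 CPM to 46.2, 51.3 and 53.8 CPM (1.53 ± 0.14 SE, adjusted p = 4.37e-06). No library of one genotype overlapped the other for either gene. Per length, *Eif4ebp1* exceeded *Eif4ebp2* by a ratio of 13.6, 15.2 and 17.8 in Pdk4fl/fl and of 2.60, 2.11 and 1.99 in Pdk4SMKO libraries. *Eif4enif1*, which carries eIF4E into the nucleus, was at 95.4, 88.7 and 74.3 CPM against 90.6, 89.6 and 93.8 CPM (0.08 ± 0.13 SE, adjusted p = 0.55). *Eif4ebp3* was not tested, with 2, 1 and 0 counts in Pdk4fl/fl and 4, 9 and 7 in Pdk4SMKO libraries.

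Among the 3 factors of the final steps of initiation, 2 fell and 1 was not called. *Eif5*, which triggers GTP hydrolysis by eIF2, fell by 1.36 (SE 0.12), from 569, 608 and 659 CPM to 247, 223 and 242 CPM. *Eif6*, which keeps the large subunit from joining too early, fell by 1.63 (SE 0.13), from 336, 404 and 408 CPM to 134, 119 and 118 CPM. *Eif5b*, the GTPase that joins the subunits, was at 144, 126 and 144 CPM against 126, 130 and 146 CPM (−0.05 ± 0.12 SE, adjusted p = 0.73), and its span overlaps that of *Rev1*.

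All 6 tested elongation factor genes fell, with a median log2 fold change of −1.43 and a narrow range from −1.71 to −1.03. *Eef2*, the GTPase that moves the ribosome along the mRNA (chromosome 10 from 84685449 to 84690749 in the file's coordinates), was the most abundant member per length, at 4001 ± 598 CPM per kb (SD, n = 3) in Pdk4fl/fl and 1224 ± 133 CPM per kb in Pdk4SMKO libraries. It was at 10780, 11560 and 8593 CPM against 2869, 3535 and 3064 CPM and fell by 1.71 (SE 0.16, adjusted p = 4.84e-06, edgeR). *Eef2* alone took 0.904%, 0.938% and 0.673% of the reads in Pdk4fl/fl and 0.360%, 0.429% and 0.378% in Pdk4SMKO libraries. The exchange factor subunits that reload eEF1A with GTP fell together. *Eef1g* fell by 1.60 (977, 1037 and 1286 CPM against 386, 333 and 373 CPM). *Eef1d* fell by 1.27 (299, 330 and 395 CPM against 142, 139 and 144 CPM). *Eef1b2* fell by 1.03 (708, 760 and 1100 CPM against 402, 391 and 465 CPM), with 0.82 in place of 1.03 when the third Pdk4fl/fl library was left out.

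*Eif5a* carries the amino acid hypusine and helps the ribosome through difficult peptide bonds. It fell by 1.60 (SE 0.13), from 1111, 1202 and 1320 CPM to 450, 376 and 375 CPM. *Eif5a2*, its rarer paralog, fell by 1.06 (SE 0.19), from 22.8, 21.2 and 19.1 CPM to 11.97, 7.90 and 10.4 CPM, with −0.9996 without the first Pdk4fl/fl and −0.90 without the second Pdk4SMKO library. *Eef1a2*, the muscle and neuron form of eEF1A, was not tested, with 0 counts in each Pdk4fl/fl library and 7, 5 and 2 counts in the Pdk4SMKO libraries. *Eef1a1* has no named row. The 15 rows described as elongation factor 1-alpha 1, looked up after the other values, are mostly processed pseudogenes, 10 had counts, and reads of the parent gene cannot be told apart from theirs. Summed, they held 12260 ± 2244 CPM (SD, n = 3) in Pdk4fl/fl and 3318 ± 53.8 CPM in Pdk4SMKO libraries, 27.1% of the Pdk4fl/fl level. The row with most reads is protein-coding, with a mean of 4751 CPM in Pdk4fl/fl and 1581 CPM in Pdk4SMKO libraries. The next, a likely coding row that overlaps it, had 3041 and 703 CPM. These rows fell by 1.59 and 2.11 on the log2 scale.

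Of the 3 members whose products modify the elongation factors, 1 rose and 2 were not called. *Eef2kmt*, a methyltransferase of eEF2, rose from 3.26, 2.14 and 1.97 CPM to 8.59, 9.84 and 11.1 CPM (2.00 ± 0.26 SE, adjusted p = 4.37e-05, edgeR), and its span overlaps that of *Alg1*, which has several times its counts. *Eef2k*, the kinase that inactivates eEF2, was at 40.0, 40.7 and 49.1 CPM against 24.9, 36.5 and 35.7 CPM (−0.42 ± 0.17 SE, adjusted p = 0.045). *Eef1akmt1*, a methyltransferase of eEF1A, was at 6.73, 8.39 and 9.38 CPM against 13.0, 12.3 and 13.6 CPM (0.67 ± 0.18 SE, adjusted p = 0.0067). Neither *Eef2k* nor *Eef1akmt1* reached 2-fold. The rows under older names of eEF1A methyltransferases, looked up after the values were seen, gave −1.89 (*Mettl13*), 0.20 (*Mettl10*) and −3.66 (*Mettl21b*). *Mettl21b* had 51, 84 and 95 counts in Pdk4fl/fl and 13, 4 and 8 in Pdk4SMKO libraries. Its span overlaps that of the more highly counted *Mettl1*. Of the other named members, *Eif1ad* fell by 1.70 (SE 0.13). *Eef1e1*, a scaffold of the tRNA synthetase complex, gave −0.90 ± 0.18, and *Eif4a3*, a helicase of the exon junction complex, gave −0.48 ± 0.11. *Eif4e1b*, a form of germ cells, had 0 counts in every library.

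Pairs of factors were compared within each library, which leaves scaling out. Values could be given for 12 of 14 pairs, and 10 did not overlap between genotypes. Of all single genes tested, 38.3% did not overlap on the lower side and 43.5% on the higher side. The share over other pairs of genes was not computed, so the count of 10 is not a result about these pairs. With 3 libraries against 3 the exact two-sided permutation p cannot go below 0.1 (0.12 after Benjamini-Hochberg adjustment over the 12 pairs), so none could pass. The *Eif4a1*/*Eif4a2* ratio was 5.89, 5.69 and 5.01 against 2.22, 2.04 and 1.82. *Eif1*/*Eif1b* moved by −0.64, *Eif4e*/*Eif4e2* by −0.71, *Eif4g1*/*Eif4g3* by −0.78 and *Eif5a*/*Eif5a2* by −0.52 on the log2 scale. In these 5 pairs the form named first had more reads per length in Pdk4fl/fl cells, and its ratio to the other was lower in Pdk4SMKO cells. *Eif4e*/*Eif4e3* had the same order of abundance in Pdk4fl/fl cells, but its groups overlapped. Genes with a mean of at least 50 CPM had a median log2 fold change of −0.64, against 0.12 over all genes. The part of abundance in these ratios was not tested. *Eif1a*/*Eif1ax*, nearly even in Pdk4fl/fl cells, moved the other way by 1.95. The ratio of *Eef2* to its kinase *Eef2k* moved by −1.27 and that of *Eif4e* to its repressor *Eif4ebp1* by −0.44. *Eif2b5* against *Eif2s1*, the alpha subunit of eIF2, moved by 0.71. The *Eif4e*/*Eif4e3* (−0.16, p = 0.5, exact permutation test) and *Eif4g1*/*Eif4g2* (0.25, p = 0.2, exact permutation test) ratios overlapped.

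**Figure D4:**
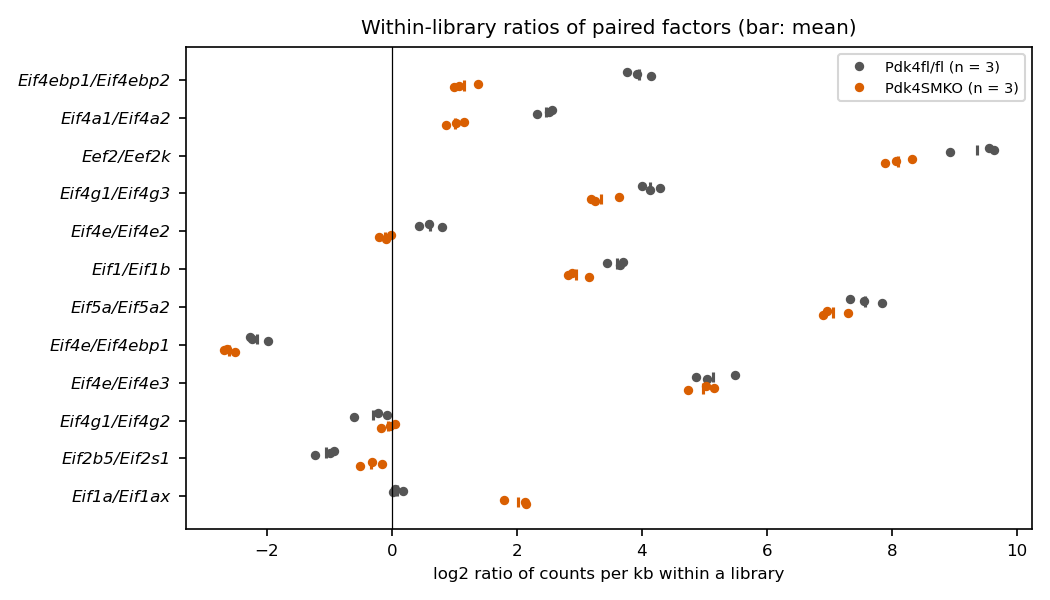
Log2 ratio of 2 factors' counts per kb within each library (x axis) for the 12 pairs with values (y axis), with a bar at the mean of each genotype (n = 3). *Eif4ebp1*/*Eif4ebp2* moved furthest to the left and *Eif1a*/*Eif1ax* furthest to the right in Pdk4SMKO libraries, and *Eif4e*/*Eif4e3* and *Eif4g1*/*Eif4g2* overlapped.

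Since many members moved together, their promoters were searched in RefSeq sequence of GRCm38.p6, a build other than that of the counts. The table held a start for 43 of the 57 members. The E-box CACGTG, a palindrome that the Myc, USF and TFE families are known to bind, lay between 250 bases before and 50 bases after the start in 11 of the 29 starts of members that fell (37.9%), in 3 of 28 starts of the other members (10.7%) and in 7.15% of all 32851 starts. Among genes with a mean of at least 50 CPM the share was 17.6% of starts of genes that fell and 9.0% of the rest. Several genes have more than 1 start, so starts are not independent. Counted by gene, the E-box lay at 9 of 23 members that fell, 3 of 20 other members and 2187 of 27025 genes overall. At a mean of at least 50 CPM it lay at 265 of 1280 genes that fell and 209 of 1919 of the rest. CCGGAAG (either strand), bound by ETS factors, lay in 37.9% of starts of members that fell, 28.6% of the other members' and 8.86% of all. At a mean of at least 50 CPM it lay in 22.1% of starts of genes that fell and 16.7% of the rest. TATAAA (either strand) lay in 6.9%, 7.14% and 13.6%, and in 6.97% of all starts of genes at that level, a share like the members'. The palindrome TGACGTCA lay in 3.45%, 0.0% and 1.79%, and in 3.57% of starts of genes at that level. A match describes the letters of these windows alone. Windows of 30 bases around the E-box, in capitals and on the gene's strand, are shown for 6 of the 9 members that fell. They are also shown for *Eef2k* and *Eif4g1*, which were lower but short of 2-fold. With library size alone these 2 genes were at 0.19 and 0.22. Windows of *Eif4a1*, *Eif5a*, *Eif5a2* and the uncalled *Eif4h*, and further windows of *Eif4e* and *Eif4g1*, are not shown.
Eef2, chr10:81176576-81176605, + strand: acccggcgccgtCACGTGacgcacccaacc
Eif1b, chr9:120492570-120492599, + strand: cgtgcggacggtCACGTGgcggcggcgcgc
Eif3a, chr19:60790654-60790683, − strand: ccgcgagggaatCACGTGgttccttccttt
Eif3f, chr7:108934335-108934364, + strand: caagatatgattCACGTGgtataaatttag
Eif3k, chr7:28981915-28981944, − strand: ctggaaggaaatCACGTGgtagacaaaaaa
Eif4e, chr3:138527192-138527221, + strand: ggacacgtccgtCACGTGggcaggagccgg
Eef2k, chr7:120842788-120842817, + strand: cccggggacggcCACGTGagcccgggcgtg
Eif4g1, chr16:20672661-20672690, + strand: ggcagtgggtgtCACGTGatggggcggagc

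TOP mRNAs begin with a C followed by a run of pyrimidines. Of 10 translation factors known as TOP mRNAs *Eef1a1* has no named row, and the other 9 fell, with a median of −1.68 and a range from −2.97 (*Eif3a*) to −1.03 (*Eef1b2*). Of the TOP mRNAs outside the family with a named row 4 of 4 fell, from −1.90 (*Rack1*, a protein of the small ribosomal subunit) to −1.04 (*Nap1l1*, a histone chaperone). All of these genes have a mean of at least 50 CPM, a level at which 40.0% of all genes and 28 of 42 members fell. The 9 are also among the members counted above, so they add no separate evidence. A run of at least 5 pyrimidines beginning with C within 5 bases of an annotated RefSeq start was found in 9 of the members' 57 starts (15.8%), in 3 of the 29 starts of members that fell (10.3%) and in 18.3% of all starts. The share among members was thus near that of all genes, and an annotated start can lie bases away from the one used in these cells. The eIF3 starts with such a run (in capitals) are shown because they include the 2 subunits that were not called, *Eif3b* and *Eif3l*. Of these, *Eif3b* was level and *Eif3l* was lower but short of 2-fold. The start of *Eif3a*, which has no such run, follows.
Eif3f, chr7:108934405-108934434, + strand: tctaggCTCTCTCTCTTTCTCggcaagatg
Eif3l, chr15:79075213-79075242, + strand: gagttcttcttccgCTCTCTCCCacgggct
Eif3b, chr5:140419295-140419324, + strand: ggcgcgcggtgaCTTCTgggagtcggaagc
Eif3a, chr19:60790674-60790703, − strand: ctcgggcggcggcgctgccgccgcgaggga

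Genes around the translation factors gave the following counts, on the same test and backgrounds. Of the 4 eIF2 kinases, *Eif2ak4* (the sensor of uncharged tRNA) fell by 1.77, *Eif2ak3* (the sensor of the endoplasmic reticulum) fell by 1.18 and *Eif2ak2* (the sensor of double-stranded RNA) rose by 1.69, from 17.9, 16.2 and 20.4 CPM to 58.9, 54.9 and 61.7 CPM. Downstream of them, 6 of 9 effectors of the integrated stress response fell and 2 rose. *Ppp1r15a*, which directs the eIF2 phosphatase, was at 869, 964 and 833 CPM against 33.5, 37.2 and 25.7 CPM (−4.79), and *Sesn2* gave 1.87. Among 14 genes of mTORC1 and cap-binding control 5 fell and 3 rose, from *Tsc1*, a brake on mTORC1, at −4.51 to *Deptor*, an mTOR inhibitor, at 3.17.

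Of 16 accessory initiation factors 7 fell and 1 rose, from the poly(A)-binding *Pabpc4* (−2.60) to *Ctif* (2.38). Of 8 factors of termination, recycling and their mRNA surveillance partners 5 fell and 1 rose, from *Ncbp1* (−1.81) to *Gspt2* (6.45). *Gspt2* lies on chromosome X, and had 1, 0 and 4 counts in Pdk4fl/fl and 247, 189 and 206 in Pdk4SMKO libraries. Its Pdk4fl/fl level was thus near the floor, and the size of its change is uncertain. Enzymes that modify eIF5A and eEF2 were divided, with 3 of 9 lower and 3 higher, from *Dohh*, which completes hypusine, at −2.39 to *Dph1*, which starts diphthamide, at 1.39. Of 9 tested mitochondrial translation factors 1 fell (*Mtrf1l*, −1.02) and 4 rose (up to *Mtif2*, 1.83), and their median of 0.14 was close to the 0.12 of all genes. Of 3 selenocysteine elongation genes 2 rose, and values lay between 0.68 (*Eefsec*) and 1.11 (*Secisbp2l*). Of 10 tested members of the multi-synthetase complex 4 fell and 6 were not called, from *Kars* (−2.02) to *Dars* (0.69).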

How the data were processed

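The authors deposited raw read counts per gene, whole numbers without normalization, in 1 table with the gene length beside them. The aligner, the counter and the use of strand are not given in the sources used here. The labels name GRCm39, while the identifiers are those of the C57BL/6NJ assembly, and the paper and the labels name different library kits. Groups follow the labelled genotype. All 41721 rows entered edgeR 4.0.16 (R 4.3.3), with filterByExpr, TMM scaling and the quasi-likelihood test on genotype, and p-values adjusted by Benjamini-Hochberg over all 14085 tested genes. Calls needed a log2 fold change of 1 or more in size with an adjusted p under 0.05. Standard errors are those of the fitted log2 fold change. Within-library ratios used counts plus 0.5 per kb of the table's gene length and an exact two-sided permutation test. The named genes were all members by role, core factors, fixed pairs, and the lowest and highest gene of each other list. The members and lists were chosen with earlier results of these data known. Alternatives were other scalings, DESeq2 1.42.0, filters, thresholds, a replicate block, each library left out and, chosen after seeing the data, pseudogene and copy rows added to their member. Promoter sequences are from RefSeq (GRCm38.p6) and were matched by symbol.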

Additional observations from a re-analysis of the deposited data

How the results depend on the processing

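Among the 33 called members, 33 kept their call and direction under RLE scaling, DESeq2, protein-coding rows alone, the replicate block and the added copy rows, and 18 did so with library size alone. Library size alone gave 16 members lower, 6 higher and a median of −0.648, since it moves all genes up together. Without the fold limit 41 members were lower and 7 higher (75.9% and 13.0%), against 37.1% and 42.0% of all genes. The median was −1.04 with upper-quartile scaling and −1.13 with no filter on low counts. Leaving out 1 library at a time gave 29 to 32 members lower and 2 higher each time. *Eef1b2*, *Eif5a2* and *Eif2s2*, close to the 2-fold limit, were the members that fell under it when a library was left out. *Eif4e2* passed the limit under RLE scaling (−1.03), DESeq2 (−1.03), protein-coding rows alone (−1.03) and without Pdk4fl/fl replicate 1 or 3 or Pdk4SMKO replicate 3, and *Eef1e1* did so without Pdk4SMKO replicate 1 (−1.01). With a replicate block 31 members were lower and 2 higher, with a median of −1.25. Deviations of libraries with the same number correlated at 0.0504, 0.113 and 0.261, so the numbers were not taken as pairs.

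Uncalled members near 0 changed sign in some settings. With library size alone the log2 fold changes were 0.19 (*Eef2k*), 0.58 (*Eif2b5*), 0.44 (*Eif4a2*), 0.13 (*Eif4a3*), 0.22 (*Eif4g1*), 0.38 (*Eif4h*) and 0.56 (*Eif5b*). Upper-quartile scaling gave 0.19 (*Eif2b5*), 0.0435 (*Eif4a2*) and 0.16 (*Eif5b*). *Eif2b5* and *Eif5b* were at 0.0234 and 0.0021 with no filter, and at 0.0742 and 0.0527 where every library had 10 or more counts. Leaving out 1 library gave −0.046 to 0.0066 for *Eif2b5*, −0.0405 to 0.1278 for *Eif3b*, −0.0243 to 0.1599 for *Eif4enif1*, −0.1025 to 0.0042 for *Eif5b* and −0.298 to 0.0149 for the *Eif4e*/*Eif4e3* ratio. *Eef1a2* and *Eif4ebp3* had too few counts to be tested, and *Eif4e1b* had 0 counts in every library.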
